A study of Mus musculus with 10 samples.

Results

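The brain endothelial transcripts described here are the 10 genes Cldn5, Pecam1, Flt1, Kdr, Cdh5, Slco1a4, Ly6c1, Tek, Abcb1a and Itm2a, taken by gene name from the 24033 gene names of the deposited expression files. They were measured in libraries made from adult mouse microglia, the resident macrophages of the brain, pulled down on CD11b beads, CD11b being an integrin chain that myeloid cells carry. The mice were C57BL/6, aged 3 to 5 months, and differed in Trem2, which encodes a lipid-sensing receptor of microglia. There were 3 libraries without a functional copy (TREM2-/-, KO; libraries 6, 9 and 12, 2 male and 1 female), 3 with a single intact copy (TREM2+/-, Het; libraries 5, 8 and 11, 1 male and 2 female) and 4 wild-type libraries (TREM2+/+, WT; libraries 1, 4, 7 and 10, 2 male and 2 female). The study asks what the loss of 1 or both copies does to microglia. Whether mice were pooled is not stated in the labels. P-values of the genotype and sex fits therefore reflect differences among the libraries of a genotype, which may in part be technical. P-values of slopes and of gene pairs used no genotype or sex term, so differences between genotypes and sexes also enter them.

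Brain capillary endothelial cells line the vessels that microglia touch. Tight junctions and adherens junctions seal them to each other, growth factor receptors hold them in their differentiated state, and transporters in their membranes pass nutrients and pump out drugs; together these form the blood-brain barrier. Endothelial cells do not carry CD11b, but vessel fragments and free RNA can pass through a bead isolation, and some of these genes are also known from blood cells. Pecam1 is carried by leukocytes and platelets, Flt1 and Tek by some monocytes, Itm2a by T cells, and Ly6c1 lies beside the near-identical monocyte gene Ly6c2.

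Library depth ran from 17.61 M to 45.03 M recovered reads (M, megareads). It was uneven between genotypes, at 37.09 M or more in KO libraries 9 and 12, Het library 11 and WT library 10. In the others it was 22.5 M or less. The deeper libraries are those numbered 9 to 12, so depth also went with library number. Trem2 followed its copy number, at 24.5 ± 3.52 RPKM in KO (SD, n = 3), 93.9 ± 9.98 in Het (SD, n = 3) and 191.5 ± 31.1 in WT libraries (SD, n = 4); RPKM are reads scaled to gene length and to library size. The microglial genes P2ry12 and Csf1r averaged 1967 and 1641 RPKM over the 10 libraries. KO library 6 stood apart in genes of other blood cells. Its summed RPKM of 8 neutrophil genes was 2053, against 329 and 331 in the other KO libraries, 128 to 311 in Het and 93.2 to 195 in WT libraries. For 7 monocyte genes its sum was 113, against 39.0 and 41.9 in the other KO libraries, 26.6 to 39.0 in Het and 22.4 to 37.3 in WT libraries.

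All 10 endothelial genes stood above 0.5 RPKM in every library, and all 10 passed the filter on low values. Over the 10 libraries Slco1a4 averaged 54.3 RPKM, Itm2a 49.1, Flt1 42.0, Pecam1 23.4, Abcb1a 19.0, Cdh5 17.8, Ly6c1 14.0, Tek 11.5, Kdr 10.5 and Cldn5 9.05. In that order of levels Flt1 was above Pecam1 in 10 of 10 libraries, whereas the other neighbours kept their order in only 6 to 9 of 10, with Abcb1a above Cdh5 in 6 and Tek above Kdr in 7. The lowest read number behind any value was 156, for Cldn5 in Het library 5, where counting alone gives an error of 8.01%. The coefficient of variation across libraries was 13.05% for Kdr to 26.6% for Ly6c1.

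The members with the highest correlation across libraries were Slco1a4 and Itm2a (r = 0.94). Tek (r = 0.85 and 0.83) and Flt1 (r = 0.82 and 0.81) also had high values with Slco1a4 and Itm2a, while Cldn5 had r = 0.31 and 0.30 with them. The upstream sequences of these 5 genes are shown as examples. Each run holds the 250 bases before the RefSeq gene start (build GRCm38.p6), read 5′ to 3′ on the gene's strand. Capitals mark AGGAAG or its reverse complement CTTCCT, a 6-letter form of the core bound by ETS factors, the family of the endothelial regulators Erg and Fli1, or ACAAAG or its reverse complement CTTTGT, a 6-letter core bound by SOX factors.
Slco1a4, chr6:141856221-141856470, minus strand: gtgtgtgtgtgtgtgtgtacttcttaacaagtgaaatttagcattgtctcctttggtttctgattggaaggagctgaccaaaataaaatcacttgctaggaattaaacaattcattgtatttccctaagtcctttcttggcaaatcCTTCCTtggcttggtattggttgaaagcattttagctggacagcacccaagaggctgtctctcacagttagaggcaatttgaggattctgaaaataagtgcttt
Itm2a, chrX:107403361-107403610, minus strand: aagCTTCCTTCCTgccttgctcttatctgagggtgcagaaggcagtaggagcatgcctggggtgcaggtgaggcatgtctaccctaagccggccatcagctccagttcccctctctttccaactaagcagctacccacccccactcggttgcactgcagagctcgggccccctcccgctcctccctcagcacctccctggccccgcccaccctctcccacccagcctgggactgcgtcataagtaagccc
Tek, chr4:94739039-94739288, plus strand: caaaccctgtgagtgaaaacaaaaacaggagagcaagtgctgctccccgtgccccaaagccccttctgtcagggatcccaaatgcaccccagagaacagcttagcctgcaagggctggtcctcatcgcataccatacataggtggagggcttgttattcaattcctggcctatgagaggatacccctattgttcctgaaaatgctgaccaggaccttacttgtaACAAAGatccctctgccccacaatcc
Flt1, chr5:147726012-147726261, minus strand: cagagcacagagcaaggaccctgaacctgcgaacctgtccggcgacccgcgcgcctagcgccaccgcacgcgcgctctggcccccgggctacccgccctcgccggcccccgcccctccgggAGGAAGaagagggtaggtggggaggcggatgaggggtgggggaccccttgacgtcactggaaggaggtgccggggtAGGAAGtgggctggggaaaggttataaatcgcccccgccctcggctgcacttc
Cldn5, chr16:18776597-18776846, plus strand: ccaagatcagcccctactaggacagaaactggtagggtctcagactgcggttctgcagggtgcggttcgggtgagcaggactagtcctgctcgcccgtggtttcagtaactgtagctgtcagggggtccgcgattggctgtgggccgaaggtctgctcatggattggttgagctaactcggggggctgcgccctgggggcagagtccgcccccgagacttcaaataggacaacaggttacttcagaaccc
The sequences differ in base composition, with 39.2% G and C before Slco1a4, 62.8% before Itm2a, 51.2% before Tek, 70.4% before Flt1 and 59.6% before Cldn5. The ETS letters occurred once before Slco1a4, as 2 overlapping matches before Itm2a and at 2 places before Flt1. The SOX letters occurred once before Tek, and Cldn5 held neither. Kdr, whose sequence is not shown, also held neither, although it had r = 0.91 with Cdh5 and 0.81 with Flt1. Whether these letters bear on co-variation was not tested. Of the 8 members with a promoter entry, 4 held the ETS letters on either strand (Slco1a4, Itm2a, Flt1 and Abcb1a), as did 29.2% of 27025 mouse promoters of the same length. The SOX letters were present before 2 of the 8 members (Tek and Abcb1a) and in 16.5% of all promoters. Neither set of letters overlaps the other. Pecam1 and Cdh5 have no entry in the promoter table.

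Junction and adhesion genes came first among the roles. Cldn5 (chromosome 16, 18776847 to 18778262, plus strand) encodes claudin-5, the main tight junction strand protein of brain endothelium. It stood at 10.2, 9.69 and 13.1 RPKM in KO libraries 6, 9 and 12, at 5.96, 9.89 and 8.78 in Het libraries 5, 8 and 11, and at 9.25, 6.34, 9.76 and 7.50 in WT libraries 1, 4, 7 and 10. KO library 12 was the highest and Het library 5 the lowest, and every pair of genotypes overlapped. Cdh5 (chromosome 8, 104101625 to 104144511, plus strand) encodes VE-cadherin of the adherens junction. It stood at 20.8, 14.3 and 18.9 RPKM in KO libraries 6, 9 and 12, at 11.5, 20.6 and 18.1 in Het libraries 5, 8 and 11, and at 20.3, 17.5, 22.2 and 13.5 in WT libraries 1, 4, 7 and 10. The range of Cdh5 in each genotype lay largely within that of the others. Pecam1 (chromosome 11, 106654217 to 106750628, minus strand) encodes CD31, an adhesion molecule of the lateral endothelial border. It stood at 31.5, 23.6 and 24.8 RPKM in KO libraries 6, 9 and 12, at 20.2, 23.7 and 21.1 in Het libraries 5, 8 and 11, and at 19.7, 23.2, 24.6 and 22.01 in WT libraries 1, 4, 7 and 10. Pecam1 in KO library 6 was above all other libraries, which lay within 19.7 to 24.8 RPKM.

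The receptors bind the vascular growth factors. Flt1 (chromosome 5, 147561604 to 147726011, minus strand) encodes VEGF receptor 1. It stood at 55.5, 39.1 and 38.4 RPKM in KO libraries 6, 9 and 12, at 31.4, 43.9 and 40.9 in Het libraries 5, 8 and 11, and at 47.1, 40.5, 55.3 and 27.5 in WT libraries 1, 4, 7 and 10. A KO and a WT library shared the top of the range, and WT library 10 lay at its bottom. Kdr (chromosome 5, 75932827 to 75978458, minus strand) encodes VEGF receptor 2, the main signalling receptor for VEGF-A. It stood at 11.5, 10.2 and 11.2 RPKM in KO libraries 6, 9 and 12, at 7.85, 10.7 and 10.7 in Het libraries 5, 8 and 11, and at 12.0, 9.41, 12.2 and 9.23 in WT libraries 1, 4, 7 and 10. Het library 5 lay below the rest. Tek (chromosome 4, 94739289 to 94874976, plus strand) encodes TIE2, the angiopoietin receptor. It stood at 14.0, 11.2 and 11.3 RPKM in KO libraries 6, 9 and 12, at 9.88, 10.0 and 12.7 in Het libraries 5, 8 and 11, and at 11.9, 11.8, 12.7 and 9.00 in WT libraries 1, 4, 7 and 10. The lowest Tek value was again in WT library 10.

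The transporters move compounds across the vessel wall. Slco1a4 (chromosome 6, 141805440 to 141856199, minus strand) encodes an organic anion transporter of the blood-brain barrier. It stood at 64.0, 57.7 and 47.1 RPKM in KO libraries 6, 9 and 12, at 34.6, 48.2 and 62.9 in Het libraries 5, 8 and 11, and at 50.05, 65.0, 77.5 and 36.0 in WT libraries 1, 4, 7 and 10. WT libraries held both the highest Slco1a4 value and the second lowest. Abcb1a (chromosome 5, 8660077 to 8748575, plus strand) encodes P-glycoprotein, a drug efflux pump. It stood at 26.2, 19.5 and 14.5 RPKM in KO libraries 6, 9 and 12, at 15.5, 19.9 and 19.7 in Het libraries 5, 8 and 11, and at 20.5, 19.96, 22.1 and 12.0 in WT libraries 1, 4, 7 and 10. The KO libraries alone covered most of the range of Abcb1a.

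The last members have other roles. Itm2a (chromosome X, 107397099 to 107403376, minus strand) encodes an integral membrane protein that is enriched in brain endothelium. It stood at 58.4, 46.6 and 45.1 RPKM in KO libraries 6, 9 and 12, at 35.3, 50.3 and 60.3 in Het libraries 5, 8 and 11, and at 42.8, 58.4, 62.8 and 31.2 in WT libraries 1, 4, 7 and 10. Its high and low libraries were those of Slco1a4. Ly6c1 (chromosome 15, 75044018 to 75048830, minus strand) encodes a GPI-anchored surface protein of mouse endothelium. It stood at 21.0, 14.3 and 13.6 RPKM in KO libraries 6, 9 and 12, at 10.1, 13.2 and 19.5 in Het libraries 5, 8 and 11, and at 13.9, 10.7, 13.8 and 9.81 in WT libraries 1, 4, 7 and 10. KO library 6 and Het library 11 were clearly above the rest.

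**Figure D1:**
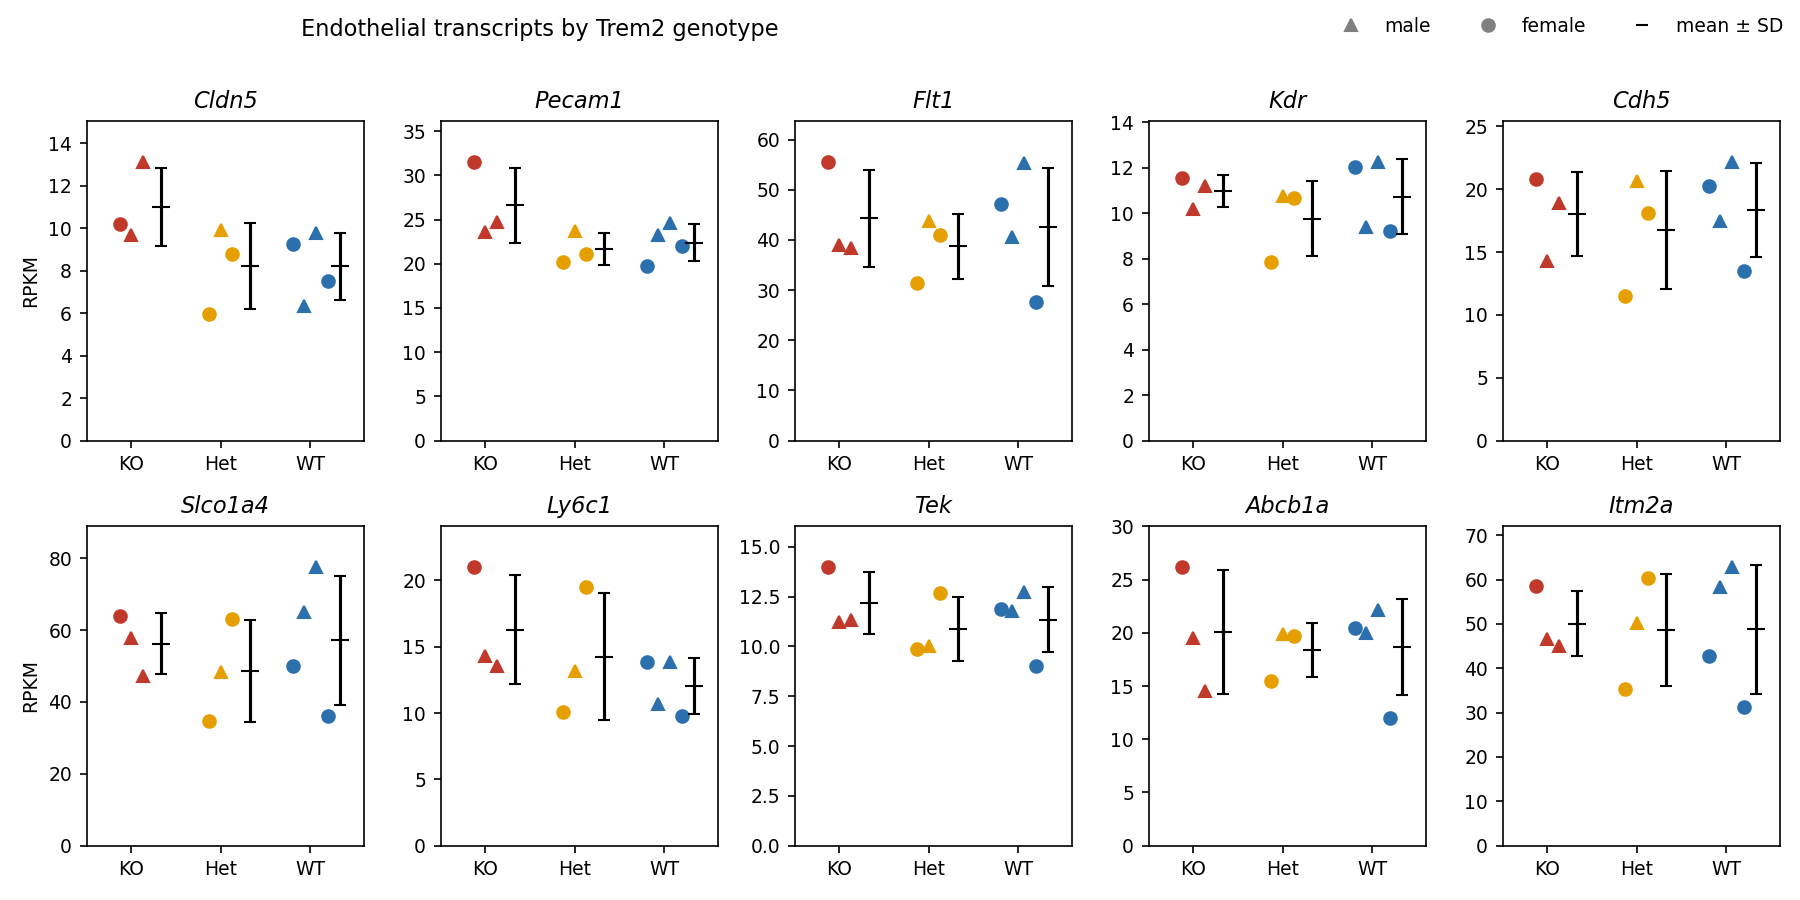
Level of each endothelial transcript in RPKM (vertical axes, from 0) by Trem2 genotype, with 3 KO, 3 Het and 4 WT libraries; triangles are male and circles female libraries, and the black bars show the mean ± SD. The genotypes overlap in all 10 panels.

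Read sharing limits what can be said of Ly6c1 and, less so, of Abcb1a. Of the 50-base stretches in the longest protein-coding Ly6c1 transcript, 31.7% also occur in that of Ly6c2. Ly6c2 stood at 27.7 for every 100 of Ly6c1 (RPKM) in KO library 6, against 3.76 to 12.0 in the other 9 libraries. For Abcb1a, 15.5% of stretches recur in Abcb1b, which averaged 10.2 RPKM. Slco1a4 shares 2.65% with Slco1a5 and 1.27% with Slco1a6, which averaged 0.393 and 0.0107 RPKM. How reads with several matches were treated is not known from the labels.

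Loss of both Trem2 copies was compared with wild type to see whether the endothelial genes followed the genotype. The fit was limma on log2(RPKM + 0.5) with genotype and sex as terms over all 10 libraries, with Benjamini-Hochberg adjustment across 13621 genes. None of the 10 passed at an adjusted p under 0.05, where 1 of all 13621 genes was called (0.00734%, Trem2). At an unadjusted p under 0.05, 0 of 10 members stood against 699 genes (5.13%), and limma-voom on recovered reads also called 0 members. The largest differences were those of Ly6c1, at 16.3 ± 4.10 RPKM in KO (SD, n = 3) and 12.0 ± 2.11 in WT libraries (SD, n = 4; log2 0.44, SE 0.22, limma adjusted p = 0.977), and of Cldn5, at 11.0 ± 1.84 in KO and 8.21 ± 1.58 in WT libraries (log2 0.39, SE 0.20, limma adjusted p = 0.977). Pecam1 averaged 26.6 ± 4.25 RPKM in KO and 22.4 ± 2.07 in WT libraries (log2 0.23, SE 0.13, limma adjusted p = 0.977). The other 7 log2 differences lay between -0.04 for Cdh5 and 0.11 for Tek. For 0 of 10 members did KO and WT libraries fail to overlap, which 4.59% of all genes did.

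In KO against WT, 8 of 10 members had a positive log2 difference with a median of 0.08, against 57.2% of all genes and a median of 0.03. This count rested on single libraries. It was 3 of 10 without KO library 6 (median -0.16) and 4 of 10 without WT library 10 (median -0.06), while it was 10 of 10 without WT library 7 (median 0.20). With a term for the libraries over 30 M reads, added after the data were seen, it was also 10 of 10 (median 0.20). Ly6c1 was at 0.22 and Pecam1 at 0.02 on the log2 scale without KO library 6, which also held the highest neutrophil and monocyte sums. In KO against WT all 8 neutrophil genes were positive (median log2 2.04, 0 called by limma, 7 at an unadjusted p under 0.05), as were all 6 monocyte genes tested (median 1.01, 0 called, 4 at an unadjusted p under 0.05); the part of those cells in the values of Ly6c1 and Pecam1 was not tested. Cldn5 was at 0.39 in the full fit and between 0.21 and 0.49 in all leave-outs.

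Het against WT asks whether the loss of 1 copy changes the members. Limma called 0 of 13621 genes (0%), and 0 of 10 members had an unadjusted p under 0.05, against 375 genes (2.75%). Trem2 itself, at log2 -1.02 (SE 0.14), was not called (limma adjusted p = 0.238), so the lack of calls does not show a lack of change. Limma-voom on recovered reads called 1 gene and 0 members. The log2 differences ran from -0.17 for Slco1a4 (SE 0.25; 48.6 ± 14.1 RPKM in Het, SD, n = 3, and 57.1 ± 18.0 in WT, SD, n = 4) to 0.17 for Ly6c1 (SE 0.22; 14.3 ± 4.80 RPKM in Het and 12.0 ± 2.11 in WT), each with a limma adjusted p of 1.00. Of the 10 members 4 were positive, with a median of -0.05, against 50.3% of all genes and a median of 0.00. Without Het library 5 all 10 were positive (median 0.07), without Het library 11 the count was 0 (median -0.15), and without WT library 10 it was 1 (median -0.20). For 0 of 10 members did the Het and WT ranges fail to overlap (4.53% of all genes).

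**Figure D2:**
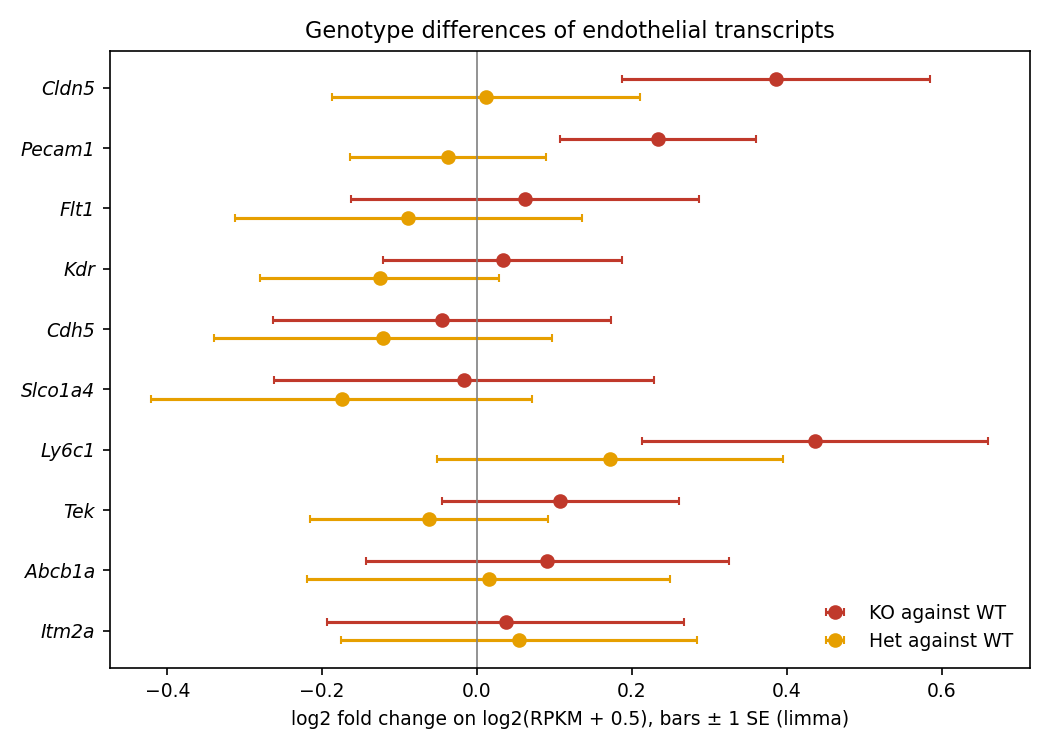
Log2 difference of each endothelial transcript in KO against WT (red) and Het against WT (orange) libraries, as fitted by limma on log2(RPKM + 0.5); points are estimates and bars ± 1 SE. In Het against WT all 10 estimates lie within 1 SE of 0, and in KO against WT Ly6c1, Cldn5 and Pecam1 lie farthest from it, with adjusted p = 0.977 by limma for each.

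KO against Het gave 0 of 10 members called, where 1 of 13621 genes was (0.00734%), and 0 at an unadjusted p under 0.05, against 456 genes (3.35%). Here 9 of 10 log2 differences were positive with a median of 0.16, against 57.1% of all genes and a median of 0.03. The count became 5 of 10 without KO library 6 (median -0.08) and 6 of 10 without Het library 5 (median 0.04). The KO and Het ranges overlapped for all 10 members, while 7.42% of all genes had ranges that did not. Between the 5 male and the 5 female libraries, limma called 0 members and 6 genes in all (0.044%). At an unadjusted p under 0.05 there were 0 members and 727 genes (5.34%). The male minus female log2 difference was positive for 8 of 10 members, with a median of 0.08, against 43.3% of all genes and a median of -0.03. It was highest for Itm2a (0.24, SE 0.20) and Slco1a4 (0.24, SE 0.21).

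Libraries with high and with low levels were found within genotypes. Relative to each gene's mean over the 10 libraries, the median member stood at 122% in KO library 6 and at 118% in WT library 7, and in each of these libraries 10 of 10 members were above their mean. It stood at 74.8% in Het library 5 and 74.9% in WT library 10, where 0 of 10 members were above their mean. In the other 6 libraries the median member lay between 99.9% and 105%. The high libraries are KO and WT and the low libraries are Het and WT, so WT libraries stood at both ends. No KO library was among the low ones and no Het library among the high ones. The part of genotype in this pattern of libraries was not tested. KO library 6 (female) had 19.28 M reads and WT library 7 (male) 18.43 M, while Het library 5 (female) had 18.46 M and WT library 10 (female) 45.03 M; the part of depth or sex in the levels of these libraries was not tested. In bulk RNA, fewer endothelial cells and less RNA per endothelial cell cannot be told apart. The summed RPKM of the 10 members was 313, 246 and 238 in KO libraries 6, 9 and 12, 182, 251 and 275 in Het libraries 5, 8 and 11, and 247, 263, 313 and 178 in WT libraries 1, 4, 7 and 10.

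**Figure D3:**
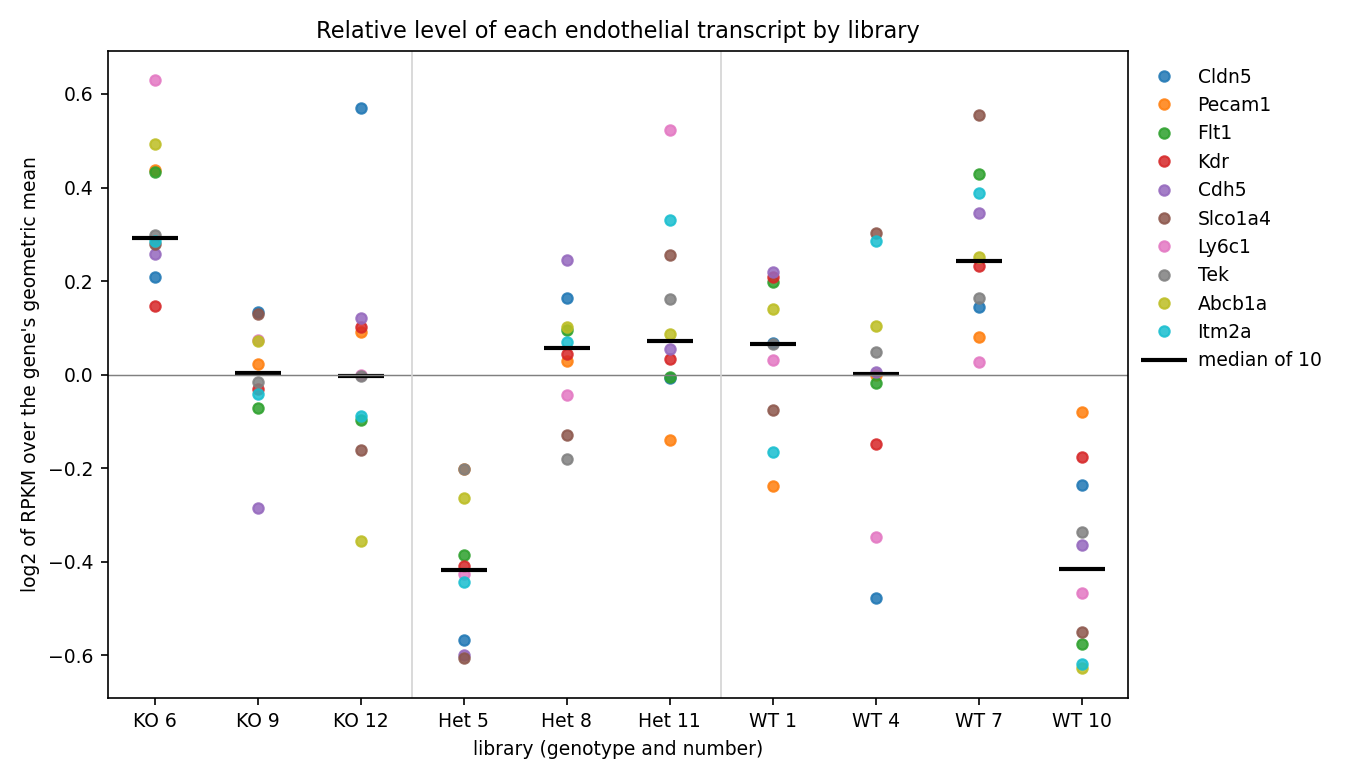
Level of each endothelial transcript in each library as log2 of RPKM over the gene's geometric mean (vertical axis), by library (horizontal axis: KO, Het, WT and library number); coloured points are genes and black bars the median of the 10. All points of KO library 6 and WT library 7 lie above 0 and all points of Het library 5 and WT library 10 lie below it.

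As a measure of spread, the SD of log2(RPKM + 0.5) across libraries had a median of 0.32 over the 10 members, from 0.18 for Tek to 0.37 for Slco1a4. Over all 13621 genes the median was 0.23, and over 10 microglial genes it was 0.18. It was 0.33 for 40 other endothelial genes and 0.43 for 11 genes of mural cells, the pericytes and smooth muscle cells that wrap vessels.

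Across the 10 libraries the members varied together. All 45 pairs had a positive Pearson's r of log2(RPKM + 0.5), with a median of 0.65, a lowest of 0.22 (Cldn5 with Abcb1a) and a highest of 0.94. Taking each member in turn, its median r was 0.48 to 0.81 with the other members. With all genes tested it was -0.03 to 0.08. The pairs share libraries and genes and are a description. With the mean of each genotype removed, 45 of 45 were positive (median 0.70). With the mean of each sex removed the count was again 45 (median 0.68), as it was with the means of the 4 libraries over 30 M reads and the 6 others removed (median 0.66). With the 2 libraries farthest from the median of a pair's first gene left out, 44 of 45 stayed positive and the median was 0.44.

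Slco1a4 and Itm2a were the closest pair (r = 0.94, permutation p = 0.00026; Spearman's rho = 0.88, permutation p = 0.00181; n = 10). Without Het library 5 and WT library 10 their r was 0.86. Itm2a stood at 80.8 to 104 for every 100 of Slco1a4 (RPKM) in all 10 libraries. Flt1 and Abcb1a followed (r = 0.91, permutation p = 0.0002; rho = 0.95, permutation p = 0.00012; n = 10; r = 0.78 without KO library 6 and WT library 10). The junction gene Cdh5 and the receptor gene Kdr had r = 0.91 (permutation p = 0.00055; rho = 0.93, permutation p = 0.00034; n = 10), and r = 0.72 without Het library 5 and WT library 10. These 3 pairs were the highest of the 45 computed. Flt1, Slco1a4, Tek, Abcb1a and Itm2a had r between 0.80 and 0.94 in all 10 pairs among them, a group picked after the values were seen. Cldn5 and Pecam1 had the lowest values of r: the median with the 9 other members was 0.48 for each of them and 0.81 for Flt1. These values depend on the measure and on single libraries. Between Cldn5 and Pecam1 rho was 0.81 (permutation p = 0.0075), against r = 0.48. For Pecam1 the median r was 0.32 without KO library 6 and 0.61 without WT library 1.

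**Figure D4:**
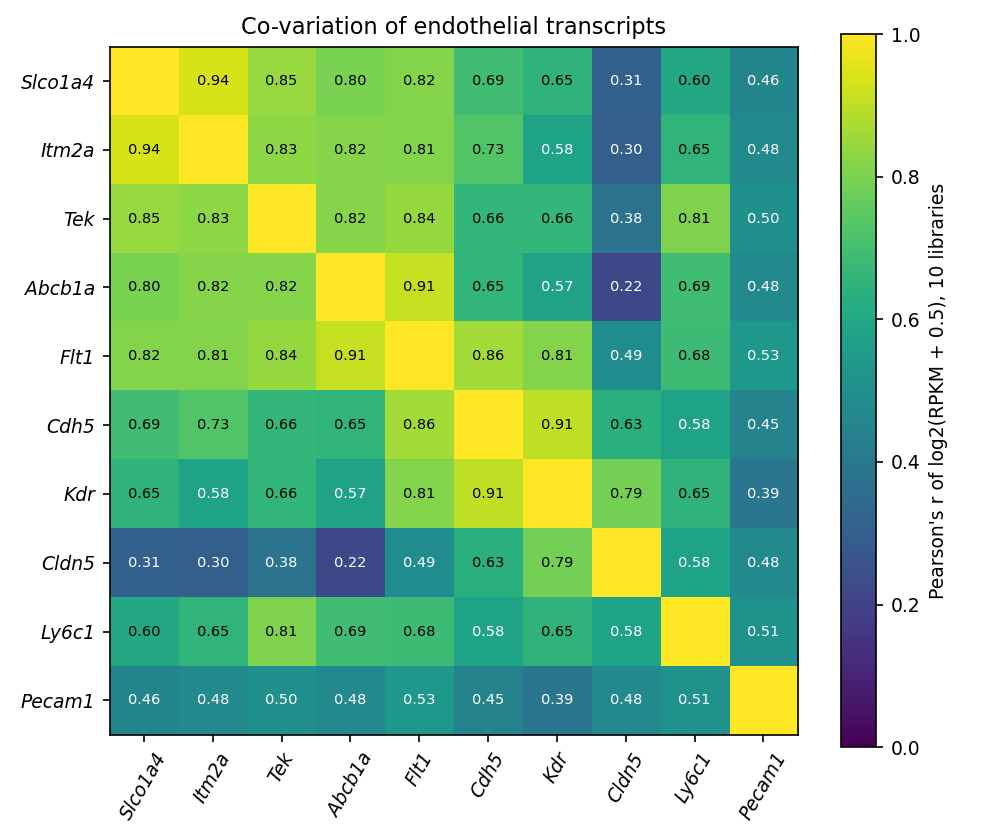
Pearson's r of log2(RPKM + 0.5) over 10 libraries for every pair of endothelial transcripts; rows and columns are genes and colour runs from 0 to 1. Slco1a4, Itm2a, Tek, Abcb1a and Flt1 at upper left reach 0.80 to 0.94, while Cldn5 and Pecam1 at lower right have the lowest values, down to 0.22.

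Each gene in the table was also tested for a slope on Cldn5 over the 10 libraries. Limma called 0 of 13620 genes (0%), with 1114 at an unadjusted p under 0.05 (8.18%); limma-voom on recovered reads also called 0. All 9 other members had a positive slope, as did 57.4% of all genes. The median slope of the members was 0.36, but 0.68 without KO library 12 and 0.23 without Het library 5. At an unadjusted p under 0.05, 3 of the 9 had a positive slope (5.56% of all genes): Kdr (r = 0.79), Cdh5 (r = 0.63) and Ly6c1 (r = 0.58), with limma adjusted p from 0.551 to 0.580. The 10 genes with a mean of at least 1 RPKM that were most like Cldn5 were Nelfcd, a subunit of the negative elongation factor (r = 0.95), Lmcd1 (0.94), the glucose transporter gene Slc2a8 (0.92), Guca1a (0.92), the squalene synthase gene Fdft1 (0.90), Slc46a3 (0.90), the blood cell kinase gene Map4k1 (0.90), the G protein gene Gna11 (0.89), Sox18 (0.89) and Pdap1 (0.89). Only Sox18, a transcription factor of endothelium, is in the lists of endothelial genes. Likeness was measured over 10 libraries, and the adjusted p was 0.515 to 0.545 for all 10 by limma.

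With each other member in turn as the reference, a choice made after the data were seen, limma called 8 genes on Slco1a4 (0.0587% of 13620), 5 on Pecam1 (0.0367%), 4 on Itm2a (0.0294%), 1 on Abcb1a (0.00734%) and 0 on Flt1, Kdr, Cdh5, Ly6c1 and Tek. The genes called on Slco1a4 were the member Itm2a (slope 0.85, SE 0.11, limma adjusted p = 0.0215), Prom1, the endothelial adhesion receptor genes Eltd1 and Gpr116, Epas1, a hypoxia-inducible factor abundant in endothelium, Eogt, a glycosyltransferase, Tdrp and 9430020K01Rik. All 8 slopes were positive, with r from 0.91 to 0.95. The calls rested on single libraries: 0 genes were called without Het library 5, Het library 11, WT library 7 or WT library 10, and 5 to 9 without any of the other 6. With genotype and sex as terms the count was 0. The genes called on Itm2a were Slco1a4, 9430020K01Rik, Epas1 and Heg1, an endothelial membrane receptor, and the gene called on Abcb1a was Gpr116.

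The 5 genes called on Pecam1 were Chil3 (r = 0.94), Mmp8 (0.90), Ifitm6 (0.89), Ngp (0.89) and S100a8 (0.88), of which Chil3 is in the monocyte list and Mmp8, Ngp and S100a8 are in the neutrophil list. S100a8 stood at 479, 104 and 91.3 RPKM in KO libraries 6, 9 and 12, at 86.5, 91.7 and 36.7 in Het libraries 5, 8 and 11, and at 30.1, 57.7, 69.9 and 56.1 in WT libraries 1, 4, 7 and 10. Without KO library 6, 0 genes were called on Pecam1 and r with these 5 genes was 0.64 to 0.81. The count was also 0 without WT library 1, 1 to 5 without each of 7 others and 15 without Het library 5. Whether the reads of Pecam1 came in part from blood leukocytes was not tested.

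**Figure D5:**
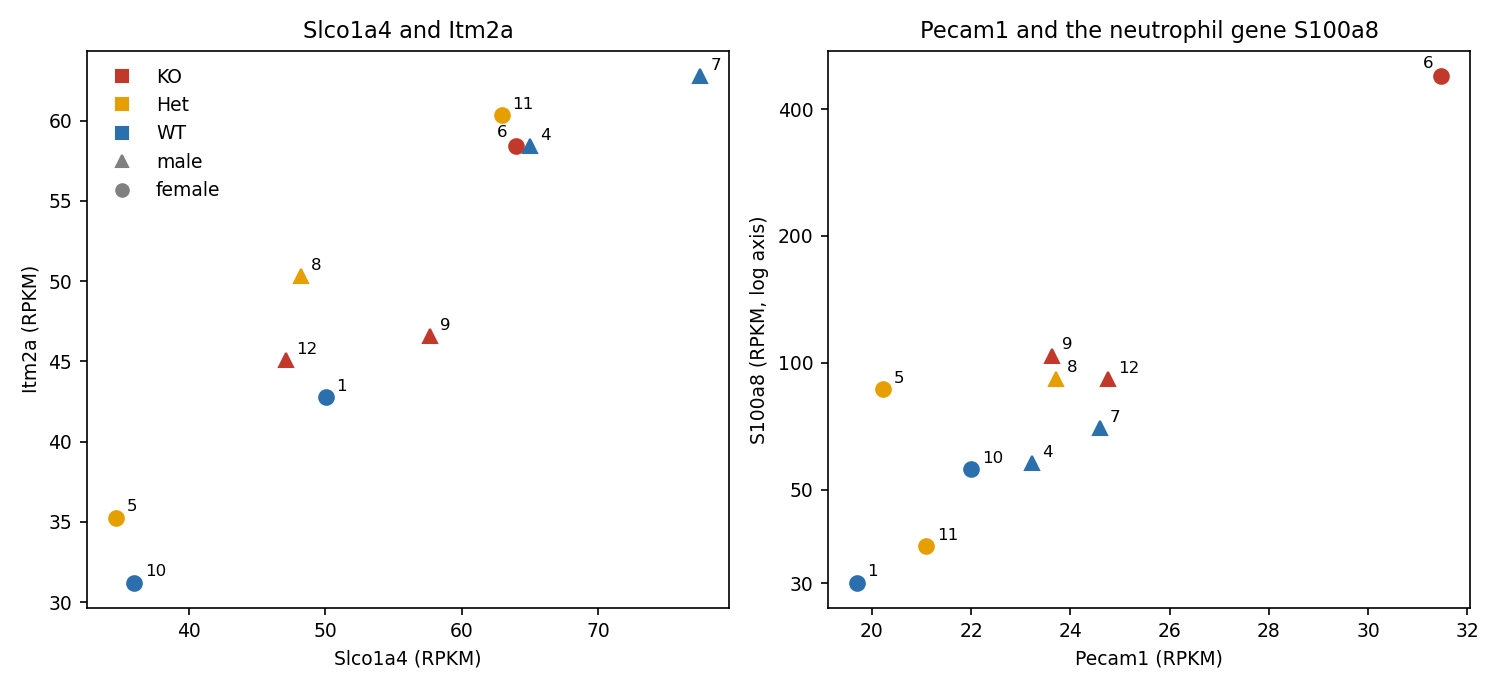
Left, Itm2a against Slco1a4; right, S100a8 (log axis) against Pecam1, all in RPKM, with 1 point per library, coloured by genotype, shaped by sex and marked with the library number. Slco1a4 and Itm2a rise together with Het 5 and WT 10 at the low end; KO 6 lies apart at 31.5 RPKM of Pecam1 and 479 RPKM of S100a8.

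Of 40 other endothelial genes, 40 were tested and 0 were called in KO against WT, Het against WT, KO against Het or male against female. Of all 13621 genes 1, 0, 1 and 6 were called, in that order. In KO against WT 29 of 40 were positive (median log2 0.08), against 57.2% of all genes. In Het against WT it was 19 of 40 (median -0.02), against 50.3%. KO against Het gave 32 of 40 (median 0.11), against 57.1%, and male against female 24 of 40 (median 0.07), against 43.3%. At an unadjusted limma p under 0.05 in KO against Het, 2 of the 40 were positive and 1 negative, against 3.35% of all genes. The most abundant were Bsg, a transporter chaperone at 272 RPKM, the tight junction scaffold gene Tjp1 at 169, the glucose transporter gene Slc2a1 at 112, Ly6a at 55.8 and the matrix proteoglycan gene Spock2 at 54.2, as means of 10 libraries. Bsg and Tjp1 are widely expressed. The summed level of the 40, to which Bsg and Tjp1 add most, was highest in KO library 6 (1294 RPKM) and lowest in WT library 10 (904 RPKM). For the members the sum was also lowest in WT library 10, and it was 313 RPKM in both KO library 6 and WT library 7. On Cldn5, 34 of 40 slopes were positive, against 57.4% of all genes, and 0 were called. The median r was 0.42, against 0.08 for all genes and -0.03 for 10 microglial genes. On Slco1a4, 40 of 40 correlations were positive (median r = 0.58), against a median of -0.02 for all genes.

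Ligands and partners of the endothelial receptors form a second list of 21 genes, of which 18 were tested and 0 were called in any of the genotype, sex or Cldn5 tests. In KO against WT 8 of 18 were positive (median log2 -0.02), against 57.2% of all genes. In Het against WT it was 10 of 18 (median 0.01), against 50.3%. KO against Het gave 7 of 18 (median -0.03), against 57.1%, and male against female 12 of 18 (median 0.07), against 43.3%. The most abundant were the TGF-beta receptor gene Tgfbr2 at 136 RPKM, the VEGF co-receptor gene Nrp1 at 39.5, the sphingosine phosphate receptor gene S1pr1 at 35.9, the growth factor gene Vegfb at 32.0 and the chemokine gene Cxcl12 at 18.8. Tgfbr2 is a gene that microglia themselves express, and the list's sum spanned only 280 to 340 RPKM. Vegfa, the ligand of Flt1 and Kdr, stood at 2.75 ± 0.215 RPKM in KO (SD, n = 3), 3.36 ± 0.675 in Het (SD, n = 3) and 3.13 ± 0.793 in WT libraries (SD, n = 4).

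Genes of other brain and blood cells were present beside the endothelial genes at differing levels, and the part of those cells in the results was not tested. The 11 mural genes were all tested and 0 were called. Their summed level was 64.5 to 84.5 RPKM in KO, 51.8 to 131 in Het and 63.9 to 102 in WT libraries, with Het library 5 lowest, as for 4 members, but Het library 11 highest and WT library 10 next. The mural gene Rgs5 averaged 28.4 RPKM and Pdgfrb 2.15. The 10 astrocyte genes summed to 37.7 to 42.1 RPKM in KO, 38.6 to 59.2 in Het and 33.3 to 51.1 in WT libraries. Slc1a3 made up most of this sum, at 26.1 RPKM on average, with Aqp4 at 1.995 and Gfap at 0.287. The 8 oligodendrocyte genes summed to 19.4 to 23.6 RPKM, the 8 neuronal genes to 3.32 to 6.26 and the 7 fibroblast genes to 2.28 to 7.37 over the 10 libraries. The 5 platelet genes summed to 20.5 to 43.9 RPKM in KO, 27.3 to 31.6 in Het and 20.2 to 31.2 in WT libraries. Nearly all of this sum was Pf4 and Gp9, at 16.1 and 11.7 RPKM on average. Ppbp, Itga2b and Gp1bb averaged only 0.614, 0.232 and 0.0295 RPKM, so the sum is a poor measure of platelet RNA. The T and NK cell genes summed to at most 1.41 RPKM. Of 5 red cell genes, the 4 globin genes are listed at 0 in all 10 libraries.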

How the data were processed

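RNA was measured in 10 libraries of CD11b-bead microglia, prepared with the NuGen Ovation v2 kit and read on a HiSeq4000, per the labels' protocols. The authors deposited RPKM for each gene in each library. The submitters' processing notes name STAR, HTSeq, edgeR and limma with build mm10; versions, the order of steps and the annotation are not known from them. The files list 24060 names, of which 27 had been turned into dates and were left out. In all 19983 remaining genes above 0, RPKM steps gave whole reads (tolerance 0.0005 reads or 3e-08 of the value), which was 100% of these genes, and depths are sums of these reads. Of these genes 1085 were above 0 in only 1 library, where the method gives a whole read in any case.

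Genes that reached 0.5 RPKM in 3 or more libraries were tested with limma 3.58.1 in R 4.3.3 (mean-variance trend, two-sided) on log2(RPKM + 0.5), which understates the change of low genes. All libraries entered 1 fit with genotype and sex as terms. Slopes on a member used no covariate. P-values were adjusted over all genes tested by the Benjamini-Hochberg method. The scripts were tested on simulated data. Permutation p-values come from 100000 resamples (two-sided) and are not adjusted for the 45 pairs. Coordinates are from GENCODE M21 (GRCm38, which mm10 denotes), sequences from RefSeq (GRCm38.p6).

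The members and the lists of other genes were chosen with earlier results of these data known. The genes named are the 10 members, the 10 most like Cldn5 by Pearson's r, called genes and the 5 most abundant of each endothelial list, markers of other cells, paralogs and Trem2. Vegfa and the genes called on other members were named beside this rule. The result of 1 list member is left out here. Eltd1 and Gpr116 are the files' names of Adgrl4 and Adgrf5. Alternatives were other pseudocounts, filters and scalings, limma-voom on recovered reads, library weights, no sex term, other reference genes, depth as a term and leaving out each library.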

Additional observations from a re-analysis of the deposited data

Results flagged for a closer look

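The summed RPKM of 8 neutrophil genes was 93.2 in WT library 1, far below the other 3 WT libraries, which lay within 178 to 195. Only the WT group has enough libraries for this check of a sample far from the others, and chance flags about 1 in 20 such groups; 25 quantities were checked (10 members and 15 sums), and of these this sum alone met the criterion. WT library 1 was also the lowest library for Pecam1, at 19.7 RPKM; the part of neutrophils in that value was not tested.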

How the results depend on the processing

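No paired analysis was run. Each library has its own number in the labels, and whether consecutive numbers mark sets of libraries was not tested. No member was called in a genotype or sex comparison or on Cldn5 under any alternative run; on Slco1a4 and on Itm2a 1 member was called each. Slopes of members on Cldn5 kept their sign in 90 of 90 values under alternatives other than leaving out each library in turn. Some of these values could not change, because another filter leaves a member's slope as it is. The 90 also hold a run without the 2 libraries farthest from the Cldn5 median. The cause of each change below was not tested.

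On the log2 scale, median centring turned Kdr (-0.026) and Itm2a (-0.022) in KO against WT and Cldn5 (-0.0017) in Het against WT. Library weights turned Flt1 (-0.10), Kdr (-0.088) and Itm2a (-0.042) in KO against WT, and Cldn5 (-0.052) and Tek (0.010) in Het against WT. Without the sex term Slco1a4 was 0.023 in KO against WT and Cldn5 -0.0099 in Het against WT. With depth as a term, added after the data were seen, Cdh5 was 0.048 and Slco1a4 0.054 in KO against WT. All 10 members were then positive in KO against WT, with a median of 0.20 in place of 0.08. In Het against WT 4 were positive, as without the term.

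Leaving out each library in KO against WT gave ranges of -0.27 to 0.31 for Abcb1a, -0.30 to 0.13 for Cdh5, -0.27 to 0.22 for Flt1, -0.28 to 0.17 for Itm2a, -0.051 to 0.11 for Kdr, -0.30 to 0.15 for Slco1a4 and -0.035 to 0.19 for Tek. In Het against WT the ranges were -0.23 to 0.12 for Abcb1a, -0.31 to 0.095 for Cdh5, -0.15 to 0.19 for Cldn5, -0.32 to 0.036 for Flt1, -0.16 to 0.23 for Itm2a, -0.22 to 0.0086 for Kdr, -0.045 to 0.41 for Ly6c1, -0.12 to 0.0039 for Pecam1, -0.42 to 0.0048 for Slco1a4 and -0.21 to 0.0043 for Tek. On Cldn5 the slope of Slco1a4 ranged from -0.028 to 0.72. The number of genes called in KO against WT was 1 to 3 over these leave-outs, 2 with limma-voom, 2 with library weights and 2 with depth as a term; in Het against WT it was 1 with limma-voom. With another member as reference in place of Cldn5 it was 5 on Pecam1, 8 on Slco1a4, 1 on Abcb1a and 4 on Itm2a.

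With 3 or 4 libraries a group, SEs of 0.13 to 0.25 on the log2 scale in KO against WT limit what could be seen, and a p that misses the threshold does not show equal levels. Read sharing with Ly6c2 limits Ly6c1.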

Other observations

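Ratios between members differed less between libraries for some pairs than for others. Kdr stood at 52.1 to 71.2 for every 100 of Cdh5 (RPKM), and Cldn5 at 9.76 to 27.8 for every 100 of Slco1a4, lowest in WT library 4 and highest in KO library 12.

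Choroid plexus genes were abundant. The 7 listed genes summed to 1178 to 1320 RPKM in KO, 1338 to 2112 in Het and 811 to 1350 in WT libraries, led by Ttr, the thyroxine carrier of choroid plexus, at an average of 1024 RPKM. Het library 8 was the highest and WT library 7, which was high in the endothelial members, the lowest. In Het against WT 7 of 7 were positive with a median log2 of 0.42, against 50.3% of all genes. Limma called 0 of the 7, and 2 had an unadjusted p under 0.05, against 2.75% of all genes.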
